A study of Caenorhabditis elegans with 15 samples.

Results

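The insulin-like peptide genes of Caenorhabditis elegans were examined in whole worms that overexpressed a secreted phosphatase in the intestine. The family was taken as every protein-coding gene whose RefSeq symbol is ins- followed by a number, together with daf-28, which gave 39 of the 19982 protein-coding genes and of the 46929 genes in the count table. Wild type was the laboratory strain N2. ACP7 OE was strain ABR275, whose transgene (ges-1p) places F21A3.11, the gene called ACP7, behind the promoter of the gut esterase gene ges-1. An SL2 trans-spliced fluorescent reporter, WormScarlet, comes after it, with the unc-54 3' end. ACP7-7A OE was strain ABR484, whose otherwise identical transgene encodes F21A3.11-7A, a catalytically dead form. The labels give no age or stage. They name 1 strain for each construct, so the construct cannot be told apart from anything else that sets that strain apart. Each group had 5 libraries of poly(A) RNA from about 1000 worms each, and the study set the active enzyme against both other groups. Nothing in the labels says that libraries came from separate cultures, so p-values measure only the spread between these libraries.

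Insulin-like peptides are small secreted hormones that bind DAF-2, the worm's insulin and IGF receptor. Agonists activate a kinase cascade through AGE-1 and the AKT kinases that keeps the FOXO factor DAF-16 out of the nucleus, and antagonists oppose it. The pathway governs dauer entry, growth, fat storage and lifespan, and many of its ligands are made in neurons, with some in the intestine.

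Library totals ran from 39050495 to 58077047 counts. Levels are given as counts per 1e6 counts after TMM scaling (CPM). F21A3.11 was at 12.96 to 16.6 CPM in wild type, at 576 to 645 in ACP7 OE and at 1072 to 1549 in ACP7-7A OE, and the reporter had no count in wild type. Some libraries stood apart from their own group. Summed sperm markers, 23 genes, were at 55.4 and 56.5 CPM in ACP7-7A OE libraries 1 and 2 and at 159 to 162 in libraries 3 to 5, while wild type was at 80.8 to 108 and ACP7 OE at 148 to 215. Summed body wall muscle markers were at 2565 CPM in wild-type library 5 while its other 4 were at 3431 to 3637. The fits were repeated without these 3 libraries, and calls of members and counts in the pathway lists that changed are given with and without them. ACP7 OE library 1 was the highest of its group in summed sperm markers. It was also highest in body wall muscle markers (3335 CPM, others at 2470 to 2805) and oocyte and early embryo markers (8350 CPM, others at 6546 to 7132). It stayed in those repeated fits. Left out alone, it took the genes called between the constructs from 1346 to 1901. In whole worms, fewer cells of a type and less RNA per cell cannot be told apart.

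Most of the family was scarce in these animals, and 4 members had the highest mean levels in wild type. Per kilobase of gene length, the highest levels over the 15 libraries were 7.91 ± 1.49 CPM per kb for ins-17, 7.61 ± 6.14 for ins-19, 5.88 ± 1.07 for ins-34, 5.28 ± 2.20 for ins-27 and 2.42 ± 0.535 for ins-2 (SD, n = 15). In wild type alone the order was ins-17 (7.33 ± 1.16), ins-19 (7.03 ± 3.03), ins-27 (6.35 ± 2.00) and ins-34 (5.89 ± 1.28), and the ranges of these neighbours in the order overlapped. The lowest ins-34 library (4.67 CPM per kb) was above the highest ins-2 library (3.56), whereas the lowest ins-19 (2.32) and ins-27 (3.02) libraries were below it. Below that step neighbours in the order overlapped again. ins-34 lies across nkcc-1 on the opposite strand, and the counting is not stated to use strand, so its reads cannot be told apart from those of that gene.

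**Figure D1:**
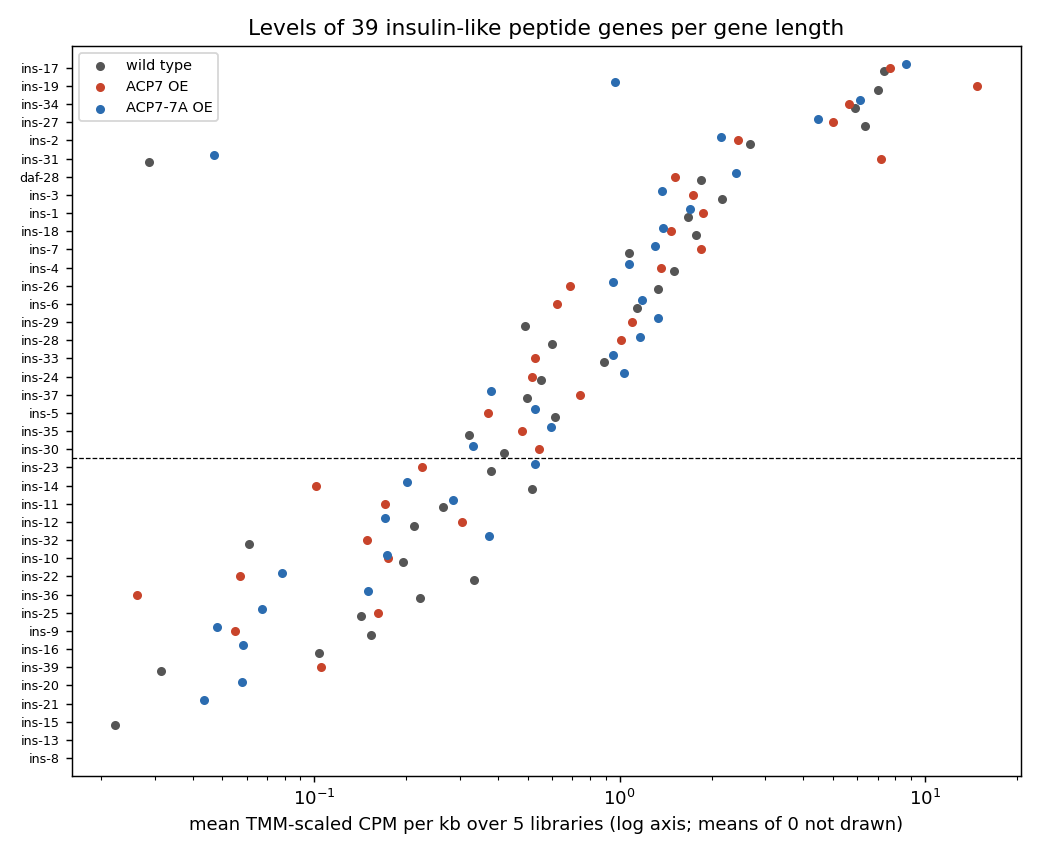
Mean level of each of the 39 members per kilobase of gene length (horizontal, log axis, TMM-scaled CPM per kb), with a point for each group of 5 libraries and members ordered by their mean over 15 libraries. The dashed line separates the 22 members with enough counts to be tested, above it, from the other 17. ins-31 and ins-19 are the members whose groups lie farthest apart among those above the line.

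The low end of the family was close to the detection limit. A filter on low counts kept 22 members for testing and left out 17. Of these, ins-8 and ins-13 had no count in any library. For ins-8 this allows a level of up to 0.00441 CPM over all 15 libraries (3 counts, counting error only). ins-13 overlaps acdh-2 on its own strand, and how reads in the overlap were counted is not stated. Its count of 0 therefore sets no such bound. The other 15 had between 2 and 102 counts over all libraries, with no single value above 20. Together the 17 untested members held 211 counts over wild type, 138 over ACP7 OE and 193 over ACP7-7A OE. Without the filter, edgeR's quasi-likelihood test passed 0 of these 15 in any comparison, where it called 2.03%, 4.12% and 5.47% of all genes with a count in ACP7 OE against wild type, ACP7-7A OE against wild type and ACP7 OE against ACP7-7A OE. At an unadjusted p under 0.05 there were 1 in ACP7 OE against wild type (ins-16, with 6 counts over wild type and 0 over ACP7 OE), 0 in ACP7-7A OE against wild type and 2 between the constructs (ins-20 and ins-39).

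In the genome, 25 of the 39 members lie in 7 clusters with at most 20 kb between neighbours, and 15 members are on chromosome II. The largest cluster holds 7 members on chromosome I (ins-28, ins-29, ins-25, ins-27, ins-24, ins-30 and ins-26, chrI:14012369-14037777, WBcel235). A cluster of 6 on chromosome II holds ins-2, ins-3, ins-4, ins-5, ins-6 and ins-20 (chrII:5988524-6011321). Of the members of these 2 clusters, 11 were tested and none passed the threshold in any comparison. The cluster that did hold changes was the pair ins-19 and ins-31 on the left arm of chromosome II.

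ins-31 RNA was abundant in every ACP7 OE library and nearly absent elsewhere. It is the member with the longest coding sequence (654 bp, 3 exons, chrII:3127041-3127831, plus strand). In wild type it was at 0, 0, 0, 0.101 and 0 CPM in libraries 1 to 5. In ACP7 OE it was at 7.10, 3.63, 5.24, 4.60 and 4.40 CPM. In ACP7-7A OE it was at 0, 0.0829, 0, 0 and 0.0809 CPM. The ACP7 OE libraries did not overlap with either other group, and the lowest of them lay far above the highest of the other 10. Summed over its 5 libraries, ACP7 OE held 1207 counts, where wild type held 4 and ACP7-7A OE held 8.

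The fitted difference of ins-31 between ACP7 OE and wild type was 7.86 on the log2 scale (SE 0.66, edgeR adjusted p = 6.9e-08). The depth-scaled ratio of counts was 276. Its 95% interval, for counting error only, ran from 107 to 1013, or 75.9 to 2280 if each pair of mates is counted once. That interval leaves out the spread between libraries, and all 4 wild-type counts came from library 4. Without wild-type library 4, the wild-type library with a count, the log2 fold change was 10.8, a value fitted against a group at 0 and so dependent on the prior count. Between ACP7 OE and ACP7-7A OE it was 7.07 (SE 0.60, edgeR adjusted p = 7.5e-08), and 7.67 and 7.66 without ACP7-7A OE library 2 or 5. ACP7-7A OE against wild type gave 0.79 (SE 1.04, edgeR adjusted p = 0.70), a difference that could not be detected at these counts.

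ins-19, the neighbour of ins-31, was scarcer in ACP7-7A OE than in both other groups. Its gene (chrII:3126037-3126441, minus strand) lies 599 bp from ins-31, and the pair is read in opposite directions, away from each other. In wild type it was at 2.28, 2.65, 3.28, 3.67 and 0.838 CPM. In ACP7 OE it was at 5.20, 5.62, 5.04, 5.70 and 5.32 CPM. In ACP7-7A OE it was at 0.917, 0.539, 0.129, 0 and 0.162 CPM. All ACP7 OE libraries were above all others, and wild type and ACP7-7A OE overlapped only through wild-type library 5 and ACP7-7A OE library 1.

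ins-19 fell by 2.86 on the log2 scale in ACP7-7A OE against wild type (SE 0.59, edgeR adjusted p = 0.014), and the value was -3.57 without ACP7-7A OE library 1. With ACP7-7A OE libraries 1 and 2 left out it was -4.63 (5.88% of all tested genes called), and with wild-type library 5 also left out it was -4.85 (10.7% called). Between the constructs ins-19 was higher in ACP7 OE by 3.93 (SE 0.60, edgeR adjusted p = 0.00083), and by 5.69 without ACP7-7A OE libraries 1 and 2. For ACP7 OE against wild type the log2 fold change was 1.08 (SE 0.51, edgeR adjusted p = 0.31), which did not pass although the groups did not overlap. A fit of these 2 groups alone gave 1.08 again with an SE of 0.26 and an edgeR adjusted p of 0.012 (7.77% of all tested genes called). With ACP7-7A OE libraries 1 and 2 left out the adjusted p was 0.027 (8.74% called), and with wild-type library 5 also left out it was 0.010 at a log2 fold change of 0.84 (15% called).

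**Figure D2:**
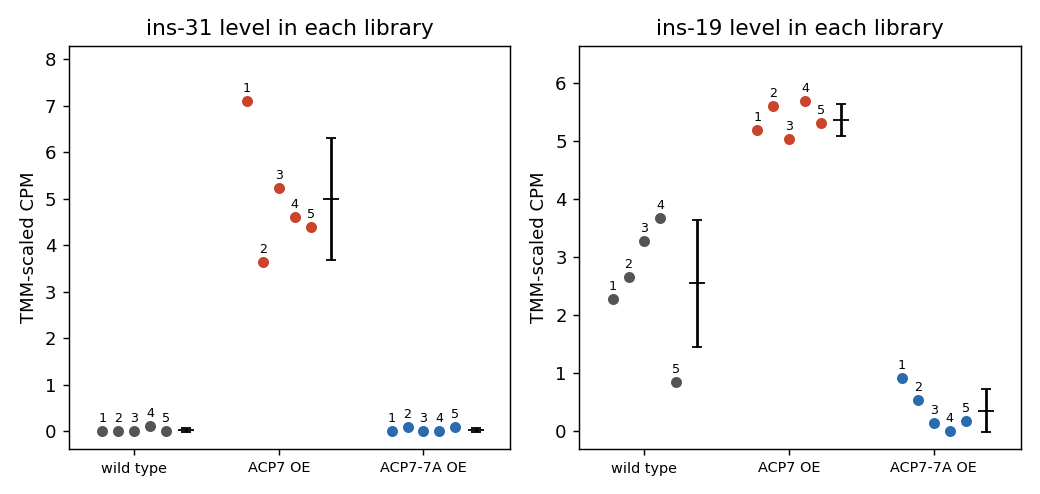
Levels of ins-31 (left) and ins-19 (right) in each library (vertical, TMM-scaled CPM), with library numbers beside the points and the mean and SD of 5 libraries beside each group. All 5 ACP7 OE libraries lie above the other 10 for both genes, and for ins-19 the ACP7-7A OE libraries lie lowest apart from the overlap of its library 1 (0.917) with wild-type library 5 (0.838).

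The 3 comparisons share libraries, so their values are not independent. In ACP7 OE against wild type 1 of the 22 tested members rose (ins-31) and 0 fell, where 2.68% of the 15725 tested genes were called (1.48% rose and 1.20% fell). In ACP7-7A OE against wild type 1 fell (ins-19) and 0 rose, where 6.86% of all tested genes were called (4.20% fell and 2.66% rose). In ACP7 OE against ACP7-7A OE 2 rose (ins-19 and ins-31) and 0 fell, where 8.56% were called (4.79% higher and 3.76% lower). At an unadjusted p under 0.05 there were 1, 1 and 3 members in these comparisons. DESeq2 called 1, 1 and 2, where it called 723, 1724 and 1807 of 15725 genes. It gave no adjusted p for 10 members in ACP7-7A OE against wild type. The groups did not overlap for 2, 0 and 3 of the tested members, beside 6.73%, 5.04% and 7.08% of all tested genes. These shares of the family are small numbers of genes and were not tested against the background.

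The other tested members did not pass, and their values went both ways with wide errors. The median log2 fold change of the 22 was -0.07, 0.04 and -0.02 in the 3 comparisons, beside medians of -0.00, 0.00 and -0.00 over all tested genes. The median SE of a member was 0.50, 0.53 and 0.53, against 0.16 over all tested genes in each comparison, so these counts leave changes of moderate size undetected. Values that did not pass ran from -0.95 to 1.16, from -0.65 to 1.44 and from -0.98 to 0.96.

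**Figure D3:**
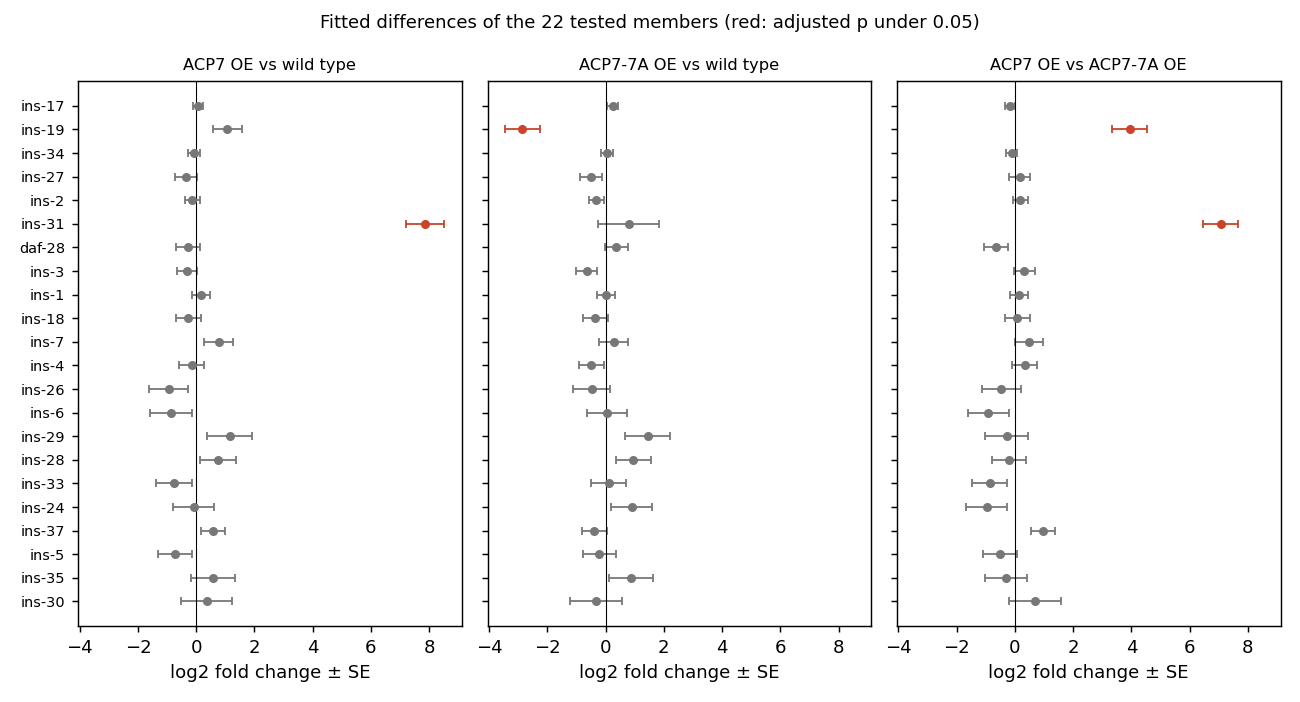
Fitted log2 fold change of each of the 22 tested members (points) with its SE (bars) in the 3 comparisons, members ordered by level per kilobase and red marking an adjusted p under 0.05. Red points appear for ins-31 in ACP7 OE against wild type, for ins-19 in ACP7-7A OE against wild type, and for both between the constructs.

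Summed over the family, RNA was at 23.96 ± 2.59 CPM in wild type, at 30.4 ± 2.42 in ACP7 OE and at 21.7 ± 4.89 in ACP7-7A OE (SD over 5 libraries). Every ACP7 OE library (27.5 to 33.1 CPM) was above every library of the other groups. Without ins-19 and ins-31 the sums were 21.4 ± 1.57, 20.0 ± 2.18 and 21.3 ± 5.21 CPM, and the groups overlapped. ins-31 made up 12.33% to 21.5% of the family's CPM in ACP7 OE. ins-19 made up 4.30% to 14.1% of it in wild type, against 15.7% to 19.4% in ACP7 OE and 0% to 5.50% with the inactive form.

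Among the agonists, none of the 6 tested passed the threshold in any comparison. daf-28, which acts with ins-4 and ins-6 to keep larvae out of dauer, was at 1.96, 1.54, 1.46, 1.46 and 0.542 CPM in wild type. It was at 2.26, 1.07, 1.12, 0.771 and 0.4995 CPM in ACP7 OE. In ACP7-7A OE it was at 0.963, 0.787, 2.22, 2.62 and 2.47 CPM, with libraries 1 and 2 below the other 3. ins-6, whose product also promotes exit from dauer, was at 0.548, 1.01, 0.607, 0.151 and 0.641 CPM in wild type and at 0.179, 0.387, 0.388, 0.471 and 0.200 in ACP7 OE. In ACP7-7A OE it was at 0, 0.124, 0.732, 1.29 and 0.930 CPM, again lowest in libraries 1 and 2.

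Between the constructs the log2 fold change was -0.65 for daf-28 (SE 0.40, edgeR adjusted p = 0.35) and -0.91 for ins-6 (SE 0.71, edgeR adjusted p = 0.47). Without ACP7-7A OE libraries 1 and 2 these became -1.09 (edgeR adjusted p = 0.069) and -1.59 (edgeR adjusted p = 0.054), with 9.91% of all tested genes called. With wild-type library 5 also left out both passed, at edgeR adjusted p = 0.026 and 0.046, where 13.6% of all tested genes were called. ACP7 OE library 1, the highest of its group for daf-28, stayed in both of these fits. Within ACP7-7A OE, summed sperm markers and summed body wall muscle markers (8 genes, 2425 and 2863 CPM in libraries 1 and 2, 4171 to 4424 in libraries 3 to 5) were also lower in libraries 1 and 2. Summed oocyte and early embryo markers (11 genes) were higher there, at 8951 and 9387 CPM against 7430 to 7904. The part of these cell types in the daf-28 and ins-6 values was not tested.

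ins-7, an agonist made in the intestine and lowered by DAF-16, was at 0.411, 0.482, 0.647, 0.378 and 0.345 CPM in wild type. It was at 0.574, 0.339, 0.504, 1.14 and 1.35 CPM in ACP7 OE and at 0.826, 1.04, 0.215, 0.238 and 0.445 in ACP7-7A OE. The groups overlapped, ACP7-7A OE libraries 1 and 2 were the highest of their group, and the log2 fold change of ACP7 OE against wild type was 0.77 (SE 0.49, edgeR adjusted p = 0.46). ACP7-7A OE against wild type gave 0.28 (edgeR adjusted p = 0.78), which turned to -0.59 (edgeR adjusted p = 0.62) without those 2 libraries. Between the constructs the value went from 0.49 to 1.35 without them (edgeR adjusted p = 0.59 and 0.14), and neither passed. ins-3 was at 1.32, 1.83, 0.769, 1.66 and 0.789 CPM in wild type, at 0.753, 0.872, 0.776, 1.16 and 1.55 in ACP7 OE and at 0.826, 0.621, 0.430, 1.096 and 1.092 in ACP7-7A OE. The value of ACP7-7A OE against wild type was -0.65 (SE 0.35, edgeR adjusted p = 0.27), with overlapping groups.

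ins-4 was at 0.502, 0.771, 1.46, 0.554 and 1.13 CPM in wild type, at 0.466, 1.02, 0.621, 0.985 and 0.899 in ACP7 OE and at 0.413, 0.207, 0.818, 0.620 and 1.092 in ACP7-7A OE. ins-35, another intestinal ligand, was at 0.0914, 0, 0.121, 0.252 and 0.148 CPM in wild type, at 0.179, 0.0968, 0.233, 0.257 and 0.150 in ACP7 OE and at 0.0459, 0.249, 0.215, 0.429 and 0.202 in ACP7-7A OE. Both genes overlapped between all groups.

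The 3 antagonists were also not called. ins-1, which takes part in salt learning and lowers DAF-2 signalling when overexpressed, was at 1.19, 1.16, 1.68, 1.71 and 0.986 CPM in wild type. It was at 1.29, 0.968, 1.16, 1.41 and 2.70 CPM in ACP7 OE and at 1.19, 0.787, 1.46, 1.81 and 1.58 in ACP7-7A OE. Library 5 of ACP7 OE was the highest of all 15, and the groups overlapped. ins-17, which promotes dauer formation and had the highest level per length, was at 5.12, 4.09, 4.07, 3.73 and 3.40 CPM in wild type, at 4.59, 4.21, 3.41, 4.155 and 5.10 in ACP7 OE and at 3.30, 4.45, 4.97, 6.34 and 5.14 in ACP7-7A OE. ins-18, which also favours dauer arrest, was at 0.594, 0.578, 0.931, 1.01 and 0.740 CPM in wild type, at 0.323, 0.726, 0.427, 1.11 and 0.599 in ACP7 OE and at 0.550, 0.249, 1.03, 0.524 and 0.647 in ACP7-7A OE. Over the 9 members with a known role, the smallest adjusted p was 0.46, 0.27 and 0.35 in the 3 comparisons. At an unadjusted p under 0.05 there were 0 of 9 in each, and DESeq2 called 0, with no adjusted p for 2 of them in ACP7-7A OE against wild type.

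**Figure D4:**
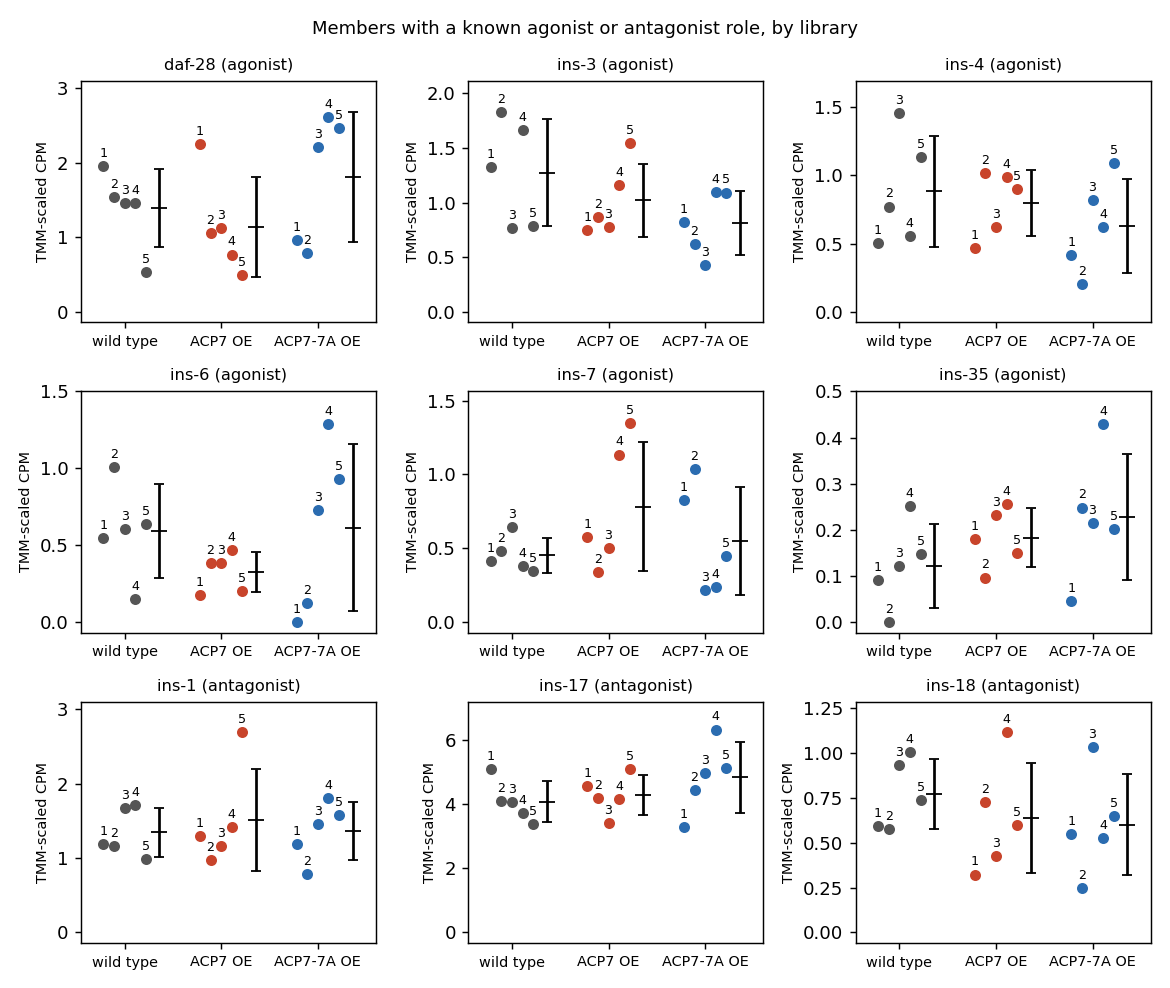
Levels of the 6 agonists and 3 antagonists in each library (vertical, TMM-scaled CPM, separate scale for each gene), with library numbers beside the points and the mean and SD of 5 libraries beside each group. The groups overlap for all 9 genes, and libraries 1 and 2 are the lowest of ACP7-7A OE for daf-28 and ins-6.

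Of the members with no assigned role, the abundant ones did not pass in any comparison. ins-34 was at 2.54, 2.72, 3.38, 2.37 and 3.92 CPM in wild type, at 2.74, 2.71, 2.89, 2.74 and 3.20 in ACP7 OE and at 3.53, 2.49, 2.30, 4.05 and 3.114 in ACP7-7A OE. ins-27 was at 2.47, 1.93, 2.10, 2.42 and 0.937 CPM in wild type, at 1.61, 1.65, 1.71, 0.900 and 1.90 in ACP7 OE and at 0.436, 1.08, 0.990, 1.53 and 2.91 in ACP7-7A OE. ins-2 was at 1.69, 1.30, 1.29, 2.06 and 1.38 CPM in wild type, at 1.76, 1.89, 0.970, 1.24 and 1.20 in ACP7 OE and at 1.28, 1.41, 1.25, 1.10 and 1.17 in ACP7-7A OE. All 3 genes overlapped between every pair of groups.

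Low members with the smallest p-values were ins-29 and ins-37. ins-29 was at 0.0914, 0.482, 0.0405, 0.201 and 0 CPM in wild type, at 0.358, 0.460, 0.427, 0.129 and 0.450 in ACP7 OE and at 0.0459, 0.373, 0.818, 0.620 and 0.364 in ACP7-7A OE. Its log2 fold change in ACP7-7A OE against wild type was 1.44 (SE 0.77, edgeR adjusted p = 0.26). ins-37 was at 0.548, 0.530, 0.647, 0.302 and 0.345 CPM in wild type, at 0.842, 0.775, 0.815, 0.557 and 0.549 in ACP7 OE and at 0.183, 0.290, 0.473, 0.381 and 0.485 in ACP7-7A OE. Its construct groups did not overlap, and the log2 fold change between them was 0.96 (SE 0.42, edgeR adjusted p = 0.17), which did not pass. ins-37 overlaps F08G2.17, an ncRNA gene on the opposite strand, and F08G2.9, an snRNA gene on its own strand. How reads in the overlaps were counted is not stated.

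The genes around ins-19 and ins-31 were measured to see how far the pattern extended. Within 20 kb on either side 17 genes are annotated, and 9 were tested, including ins-19 and ins-31. Of the 7 others, Y25C1A.2 and T10D4.15 rose in ACP7 OE against wild type and against ACP7-7A OE, and none passed in ACP7-7A OE against wild type. In that last comparison the log2 fold change of Y25C1A.2, fitted against a group at 0, was 4.05 (SE 1.45, edgeR adjusted p = 0.098). For T10D4.15 it was 0.75 (SE 0.87, edgeR adjusted p = 0.65). Y25C1A.2 had no count in wild type, was at 0.630 ± 0.231 CPM in ACP7 OE and at 0.0421 in ACP7-7A OE, and so was at least 46.9-fold higher in ACP7 OE than in wild type (3 counts over the group), or 23.4-fold with each pair of mates counted once (edgeR adjusted p = 0.00057). T10D4.15 was at 0.109 ± 0.148 CPM in wild type, at 2.77 ± 0.928 in ACP7 OE and at 0.177 ± 0.175 in ACP7-7A OE (log2 fold change 4.68 against wild type, SE 0.82, edgeR adjusted p = 0.0031). Between the constructs the adjusted p was 0.0063 for Y25C1A.2 and 0.0036 for T10D4.15.

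The other tested genes around the pair did not pass. chil-24, the next tested gene beyond ins-31, was at 3.53 CPM in wild type, at 3.56 in ACP7 OE and at 4.25 in ACP7-7A OE. srh-71, the next tested gene on the other side of ins-19, was at 0.515, 0.335 and 0.462 CPM. T10D4.6, beyond srh-71, was at 20.6, 25.5 and 23.6 CPM (edgeR adjusted p = 0.087 for ACP7 OE against wild type). clec-123 was at 2.12, 4.18 and 2.70 CPM (edgeR adjusted p = 0.22). Y25C1A.13, which lies farther out than Y25C1A.2, was at 28.6, 28.2 and 30.4 CPM.

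**Figure D5:**
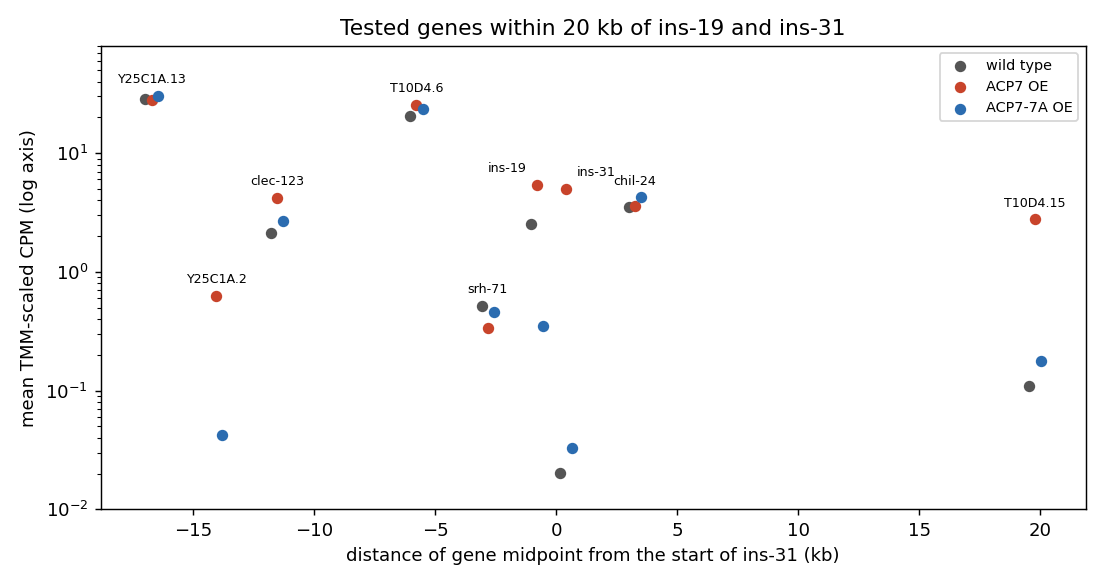
Mean level of the 9 tested genes within 20 kb of ins-19 and ins-31 (vertical, log axis, TMM-scaled CPM, 5 libraries per point) against the distance of the gene midpoint from the start of ins-31 (horizontal, kb), with the groups set slightly apart and means of 0 not drawn. ins-31, Y25C1A.2 and T10D4.15 are high in ACP7 OE alone, while chil-24, T10D4.6 and Y25C1A.13 lie close together in the 3 groups.

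Tested markers of males and of sperm had median log2 fold changes of 0.71 and 0.94 in ACP7 OE against wild type. Summed male markers (12 genes) were at 1.43 to 2.31 CPM in wild type, at 2.20 to 4.36 in ACP7 OE and at 1.42 to 2.84 in ACP7-7A OE. cwp-1 and cwp-3 were at 0 in wild type and ACP7-7A OE, with 36 and 6 counts over ACP7 OE, and neither was tested. klp-6 was lower in ACP7 OE (mean 0.220 CPM) than in wild type (0.337). The means of cwp-4, cwp-5, dmd-3 and klp-6 were highest in ACP7-7A OE. In ACP7 OE against wild type 0 of the 6 tested male markers passed (0 at an unadjusted p under 0.05, 0 by DESeq2). Of the 21 tested sperm markers 2 rose in ACP7 OE against wild type (ssp-10 and spe-42), with 11 at an unadjusted p under 0.05 and 5 called by DESeq2. In that comparison edgeR called 2.68% of all tested genes and DESeq2 called 723 of 15725. Summed intestine markers (9 genes) were at 4581 to 5546 CPM in ACP7 OE, above ACP7-7A OE at 3500 to 3996, and wild type lay at 3524 to 4753. Of these asp-1 and cpr-6 were higher in ACP7 OE than with the inactive form, and cpr-6 fell in ACP7-7A OE against wild type. In that comparison 6 of 11 oocyte and early embryo markers rose and 4 of 12 hypodermis and molting markers fell, beside 2.66% and 4.20% of all tested genes. The sums overlapped between these 2 groups. Oocyte and early embryo markers were at 6163 to 7933 CPM in wild type and at 7430 to 9387 in ACP7-7A OE, highest in its libraries 1 and 2. Hypodermis and molting markers were at 174 to 244 and 164 to 194 CPM. Summed neuron markers (11 genes) overlapped, at 286 to 316, 286 to 309 and 275 to 309 CPM. The part of any of these cell types in the ins-31 and ins-19 values was not tested.

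Genes that act with or after the ligands were read from 4 lists. Of the 16 insulin signalling genes, 0 passed in ACP7 OE against wild type (3 at an unadjusted p under 0.05, 0 by DESeq2), and the median log2 fold change was 0.02 beside -0.00 over all tested genes. Without wild-type library 5 there were 2 calls in that comparison, and without all 3 libraries that stood apart there were 3 (age-1 and rict-1 higher, ftt-2 lower). These fits called 794 of 16000 and 2434 of 16256 tested genes there, against 422 of 15725 with every library. The receptor gene daf-2 was at 139 ± 7.23, 141 ± 5.90 and 155 ± 8.65 CPM in wild type, ACP7 OE and ACP7-7A OE, and daf-16 at 161 ± 2.83, 160 ± 8.39 and 173 ± 10.3. In ACP7-7A OE against wild type rict-1, of the TORC2 complex, rose by 0.23 (SE 0.06, edgeR adjusted p = 0.017) and the kinase gene akt-2 fell by 0.38 (SE 0.12, edgeR adjusted p = 0.048). In that comparison 9 of the 16 were at an unadjusted p under 0.05, and the share of all tested genes at that cut is not given. DESeq2 called 3, with daf-2 also higher, where it called 1724 of 15725 genes. The median log2 fold change was 0.11 beside 0.00 over all tested genes. Leaving out wild-type library 1 or 3 ended the rict-1 call, and 9 of 15 single libraries ended the akt-2 call. Without wild-type library 5 the list had 7 calls, where 2248 of 16000 tested genes were called, against 1079 of 15725 with it. Between the constructs the kinase gene sgk-1 was higher in ACP7 OE (30.4 ± 2.91 against 22.98 ± 1.94 CPM, log2 fold change 0.40, SE 0.08, edgeR adjusted p = 0.0025), while the other 15 did not pass. At an unadjusted p under 0.05 there were 6. DESeq2 called 3, with akt-2 also higher and pdk-1 lower, where it called 1807 of 15725 genes. The median log2 fold change was -0.09 beside -0.00 over all tested genes. akt-2 joined sgk-1 when the 3 libraries were left out, or 2 calls in all, where 13.6% of all tested genes were called.

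Of 12 genes for peptide processing and dense core vesicle release, hid-1, which acts in making dense core vesicles, fell in ACP7 OE from 28.2 ± 0.949 to 21.7 ± 2.62 CPM (log2 fold change -0.37, edgeR adjusted p = 0.012). The other 11 did not pass there, but without ACP7-7A OE libraries 1 and 2 the list had 2 calls (egl-3, a prohormone convertase gene, also fell), and without all 3 libraries 4. In ACP7-7A OE against wild type and between the constructs 0 of 12 passed, with 3 and 2 at an unadjusted p under 0.05 and 2 and 0 called by DESeq2. Without ACP7-7A OE libraries 1 and 2 there were 1 (egl-3, higher) and 3 (egl-3, ida-1 and sbt-1, lower in ACP7 OE), and without all 3 libraries 2 and 3. Of 11 tested genes that DAF-16 raises, icl-1, of the glyoxylate cycle, fell in ACP7 OE (log2 fold change -0.45, edgeR adjusted p = 0.0083) and in ACP7-7A OE (-0.35, edgeR adjusted p = 0.030), the latter lost when any of 7 libraries was left out. Without ACP7-7A OE libraries 1 and 2 the list had 2 calls in ACP7 OE against wild type (fat-5 higher, icl-1 lower) and 1 in ACP7-7A OE against wild type, which was dod-3 and not icl-1. Without all 3 libraries there were 3 and 1. Between the constructs 0 of these 11 passed, with 2 at an unadjusted p under 0.05 and 0 by DESeq2. There were 3 without ACP7-7A OE libraries 1 and 2 (ctl-2, dod-3 and fat-5, all higher in ACP7 OE) and 4 without all 3 libraries. Of 9 genes that DAF-16 lowers, dod-23 rose in ACP7 OE from 159 ± 12.4 to 212 ± 8.44 CPM (log2 fold change 0.42, edgeR adjusted p = 0.00024) and fell in ACP7-7A OE to 129 ± 12.1 (-0.30, edgeR adjusted p = 0.0071), and the other 8 did not pass. Between the constructs dod-23 was higher in ACP7 OE by 0.72 (edgeR adjusted p = 5.6e-08), the only 1 of the 9 to pass. Without ACP7-7A OE libraries 1 and 2 the list had 1, 2 and 3 calls in the 3 comparisons, and without all 3 libraries 2, 3 and 5, in both directions. Over the whole table, fits without ACP7-7A OE libraries 1 and 2 called 1423, 958 and 1614 of 16280 tested genes. Fits without all 3 libraries called 2434, 1747 and 2212 of 16256, against 422, 1079 and 1346 of 15725 with every library. The added calls in these lists were not tested against those numbers.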

How the data were processed

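Poly(A) RNA of whole worms was sequenced as read pairs, 5 libraries in each of 3 groups, grouped by the genotype label. The authors deposited whole-number counts per gene from featureCounts 2.0.6, per the file headers. The submitters' processing notes name Trim Galore, STAR and the build WBcel235. The sources used here give no setting for strand or mates. Of the nonzero counts of members, 93.0% were even, so mates appear to have been counted separately. Symbols came from a RefSeq table that matched 46925 gene identifiers. No pair of libraries of a group shared more than 0.401% of its counts over 9218 genes with at least 100 counts in every library.

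From the deposited counts, TMM-scaled CPM and edgeR 4.0.16 quasi-likelihood tests (R 4.3.3, robust, filterByExpr, 15 libraries in 1 fit, 15725 genes) were computed, with Benjamini-Hochberg adjustment over all genes within a comparison and a threshold of 0.05. DESeq2 1.42.0 was an alternative. Counts at an unadjusted p under 0.05 have no share of all tested genes at that cut beside them, so they show no shift of a list. The procedure was tested on simulated counts. Changes were placed only in genes above a set mean level that most tested members did not reach. That test therefore does not cover detection at the counts of most members. Log2 fold changes carry the SE implied by the test. Intervals and bounds cover counting error only. Members named with all values passed the threshold, had a known role, had 1 of the 3 smallest p-values of a comparison, or were among the 5 with the highest level per length. Of the other lists, members past the threshold are named. Roles and lists were set from general knowledge, and the members and lists were chosen with earlier results of these data known. rab-2 of the processing list was not matched. Y25C1A.2, T10D4.15, other neighbours, daf-2, daf-16, ins-16, ins-20 and ins-39 were named after their values were seen.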

Additional observations from a re-analysis of the deposited data

Results flagged for a closer look

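Among 66 groups of 5 libraries, a single library lay apart from the other 4 in 5. The cut is one that normal values pass by chance in about 1 in 20 groups, and small counts such as these need not follow that rate. ins-27 was at 0.900 CPM in ACP7 OE library 4 and at 1.61 to 1.90 in the others. ins-31 was at 0.101 CPM in wild-type library 4 and at 0 in the others, a pattern that is flagged whenever a single library has a count. ins-1 was at 2.70 CPM in ACP7 OE library 5 and at 0.968 to 1.41 in the others. ins-28 was at 0.403 CPM in wild-type library 4 and at 0.121 to 0.197 in the others. ins-5 was at 0.582 CPM in ACP7 OE library 3 and at 0.242 to 0.257 in the others.

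The effects of the constructs against the shared wild type differed for 2 members, by the test between the constructs. For ins-19 the difference was 3.93 on the log2 scale (edgeR adjusted p = 0.00083), from effects of 1.08 (ACP7 OE) and -2.86 (ACP7-7A OE). For ins-31 it was 7.07 (edgeR adjusted p = 7.5e-08), from effects of 7.86 (ACP7 OE) and 0.79 (ACP7-7A OE).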

How the results depend on the processing

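The number of members past the threshold was 1, 1 and 2 in ACP7 OE against wild type, ACP7-7A OE against wild type and ACP7 OE against ACP7-7A OE, and leaving out any single library kept these numbers (1 to 1, 1 to 1 and 2 to 2). In ACP7 OE against wild type it was 2, with ins-19 added, in a fit of those 2 groups alone, without ACP7-7A OE libraries 1 and 2, and without these and wild-type library 5. Between the constructs it was 4 without those 3 libraries, with daf-28 and ins-6 added. The number of members not tested was 17, 2 with no filter on low counts and 30 with at least 50 reads in 5 libraries, since those filters admit more or fewer genes, and 16 to 17 with a library left out. Low counts and few libraries set what could be detected. Genes called over the whole table numbered 422, 1079 and 1346, and 723, 1724 and 1807 with DESeq2, which gave no adjusted p for some members.

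Of 48 log2 fold changes (16 named members, 3 comparisons), 15 changed sign under some setting, none of them past the threshold before or after, and the cause was not tested. Without ACP7-7A OE libraries 1 and 2, and without these and wild-type library 5, ins-7 in ACP7-7A OE against wild type was -0.59 and -0.68. Under each of these settings the values between the constructs were -0.12 for ins-1, -0.22 for ins-18, -0.10 for ins-4 and -0.23 for ins-27. Without all 3 libraries, ACP7 OE against wild type was -0.0019 for ins-17 and 0.038 for ins-34, and ACP7-7A OE against wild type was 0.030 for ins-4. With a single library left out, ACP7 OE against wild type ran from -0.0096 to 0.16 for ins-17, from -0.17 to 0.27 for ins-1, from -0.31 to 0.10 for ins-4 and from -0.15 to 0.039 for ins-34. ACP7-7A OE against wild type ran from -0.10 to 0.17 for ins-1, from -0.075 to 0.49 for ins-7, from -0.40 to 0.37 for ins-6 and from -0.065 to 0.15 for ins-34. Between the constructs the ranges were -0.17 to 0.26 for ins-1, -0.22 to 0.37 for ins-18, -0.56 to 0.044 for ins-35, -0.57 to 0.055 for ins-29 and -0.065 to 0.63 for ins-27.

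Groups share replicate numbers, and no label pairs the libraries. Correlations of same-numbered deviations ran from -0.15 to 0.12, and a library matched its own number best in 2 of 15 cases, so the numbers were not taken to pair libraries. With the replicate number as a block, 1, 1 and 2 members passed, as without it, and 289, 633 and 1035 genes over the table. In ACP7-7A OE against wild type the block turned ins-1 to -0.031 and ins-6 to -0.35. It also ended the calls of akt-2 and icl-1 in that comparison (edgeR adjusted p = 0.092 and 0.061), and sip-1, of the genes raised by DAF-16, gained one.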
